A study of Mus musculus with 14 samples.

Results

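The serpins are a superfamily of proteins that share one fold. The genes described here are all those of the deposited gene table whose symbol starts with Serpin followed by a clade letter from a to i and a number, which gave 49 of 17552 genes. By clade there were 24 genes of clade A, 14 of clade B, 3 of clade E, 2 each of clades F and I, and 1 each of clades C, D, G and H. RNA came from livers of male C57BL/6 Apoe-deficient mice given a Western diet, either plain (control, 7 libraries) or with erythrodiol at 10 mg/kg (7 libraries). Erythrodiol is a triterpene alcohol of olive oil and olive leaves. The labels give an age of 8 weeks and 8 weeks of diet, while the study's methods give a longer feeding period for these mice. All animals of both groups carried the Apoe deficiency and ate the Western diet, so neither a wild-type liver nor a standard diet is part of the comparison. Each library was a pool of liver RNA from 2 or 3 mice.

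In most serpins, an exposed stretch called the reactive centre loop acts as bait. A serine protease cuts the loop, the serpin refolds, and the protease is trapped and destroyed together with its inhibitor. The liver secretes the bulk of the serpins of blood plasma, among them alpha-1-antitrypsin, antithrombin, antiplasmin and C1 inhibitor, which hold clotting, fibrinolysis, complement and leukocyte proteases in check. Some clade A members carry hormones instead of inhibiting proteases, and clade B serpins stay largely inside cells, many of them leukocytes, where they guard against the cell's own granule proteases.

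The mouse carries several copies of the genes that humans have once as SERPINA1 (alpha-1-antitrypsin) and SERPINA3 (alpha-1-antichymotrypsin), and the copies differ in the loop. The coding sequences of the loop are shown because they tell the copies apart, both for the proteases they can meet and for the reads that were assigned to them. For Serpina1a to Serpina1e, the stretch from the hinge of the loop to the start of the next strand was 66 bases long and lay on the minus strand of GRCm38 at chr12:103853765-103853830 (Serpina1a), chr12:103728332-103728397 (Serpina1b), chr12:103895102-103895167 (Serpina1c), chr12:103763770-103763835 (Serpina1d) and chr12:103947108-103947173 (Serpina1e), each within 1 coding exon of the GENCODE M21 annotation. Capitals mark the bases that are not the same in all 5 genes.
Serpina1a: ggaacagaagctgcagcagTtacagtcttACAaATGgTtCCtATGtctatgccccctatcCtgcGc
Serpina1b: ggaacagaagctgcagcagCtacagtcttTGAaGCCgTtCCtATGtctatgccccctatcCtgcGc
Serpina1c: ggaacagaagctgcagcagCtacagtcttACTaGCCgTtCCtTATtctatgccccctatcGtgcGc
Serpina1d: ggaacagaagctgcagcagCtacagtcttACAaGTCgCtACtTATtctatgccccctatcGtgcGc
Serpina1e: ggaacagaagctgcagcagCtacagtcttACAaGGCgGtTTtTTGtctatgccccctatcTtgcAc
In this stretch 15 of 66 bases (22.7%) differed among the 5 genes, against 86 of 1242 bases (6.92%) over their whole coding sequences. Whole coding sequences were 96.3% to 98.5% identical between pairs, and Serpina1a and Serpina1c were the closest pair.

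The 5 Serpina3 genes with 100 or more counts over both groups, on the plus strand, were less alike. Their loops run over chr12:104220245-104220322 (Serpina3f), chr12:104241072-104241146 (Serpina3g), chr12:104345269-104345337 (Serpina3k), chr12:104393769-104393843 (Serpina3m) and chr12:104413448-104413522 (Serpina3n). Capitals again mark bases that are not shared by all 5.
Serpina3f: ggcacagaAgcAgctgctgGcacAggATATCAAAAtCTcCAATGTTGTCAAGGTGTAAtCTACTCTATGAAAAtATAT
Serpina3g: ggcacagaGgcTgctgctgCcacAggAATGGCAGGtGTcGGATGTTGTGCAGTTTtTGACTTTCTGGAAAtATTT
Serpina3k: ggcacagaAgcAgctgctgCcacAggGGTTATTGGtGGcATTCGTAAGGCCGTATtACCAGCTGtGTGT
Serpina3m: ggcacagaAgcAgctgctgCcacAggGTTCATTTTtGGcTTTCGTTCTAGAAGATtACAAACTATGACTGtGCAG
Serpina3n: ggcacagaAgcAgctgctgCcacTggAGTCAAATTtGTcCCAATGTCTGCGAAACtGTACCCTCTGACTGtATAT
In the columns where all 5 had a base, 43 of 69 (62.3%) differed in the loop and 201 of 645 (31.2%) in the coding sequence, which in Serpina3g is annotated from a later start. Identity between pairs ran from 79.8% to 91.6%, the highest being that of Serpina3k and Serpina3m. Reads are affected by this likeness to different degrees. Of all windows of 100 bases, the length of a read, in 1 transcript of each gene, 58.0% of Serpina1a and 58.5% of Serpina1c were also found in a transcript of another serpin gene, while the share was 24.6% for Serpina1b, 26.3% for Serpina1d, 18.2% for Serpina1e, 6.09% or less for the Serpina3 genes and 0% for the 5 Serpinb genes with at least 100 counts. The authors' counting splits such reads between genes by estimation, so the values of single Serpina1 copies, above all Serpina1a and Serpina1c, are uncertain, and their sum is given beside them.

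The deposited table holds 1 expected count per gene and group, the sum over the 7 libraries of that group. A group is therefore 1 value with no replicate, and no test between groups could be made. Whether a difference is larger than the spread between pools is not known from these counts for any gene. The study also measured selected genes by RT-qPCR in single mice, none of them a serpin. Of those named below, it found Prtn3 and Amy2a5 significantly lower with erythrodiol, and no significant change in Ttn and Ctrb1. Intervals given here are exact binomial 95% intervals of a ratio and cover counting error only. Column totals were 122889032 counts for control and 124686047 for erythrodiol, with 1 count for 1 read pair. Libraries had 34856340 to 55244294 clean reads in the control group and 47669656 to 48058606 in the erythrodiol group. In control replicate 3, 64.33% of clean reads mapped to genes, against 72.96% to 81.43% in the other 13 libraries, and its part in the sums was not tested. Hepatocyte markers were abundant in both groups, for example Alb at 9898794 and 9665610 counts, and Apoe had 9403 and 8293 counts, which are transcripts counted to the gene in animals of both groups labelled deficient.

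The ratio of the groups depended on gene length across the whole table. With counts scaled by column totals, the median log2 ratio between erythrodiol and control went from -0.30 in the shortest of 20 length classes (333 to 915 bases) to 0.35 in the longest (7428 to 26655 bases), and over all 13291 genes with at least 100 counts it was 0.16. Serpin genes are short: among genes with at least 100 counts, their median length was 1780.5 bases, against 2856 bases for all genes. For that reason each serpin was set against genes of like length, by taking the median log2 ratio of its length class from its own. This difference is called the length-relative log2 ratio below.

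**Figure D1:**
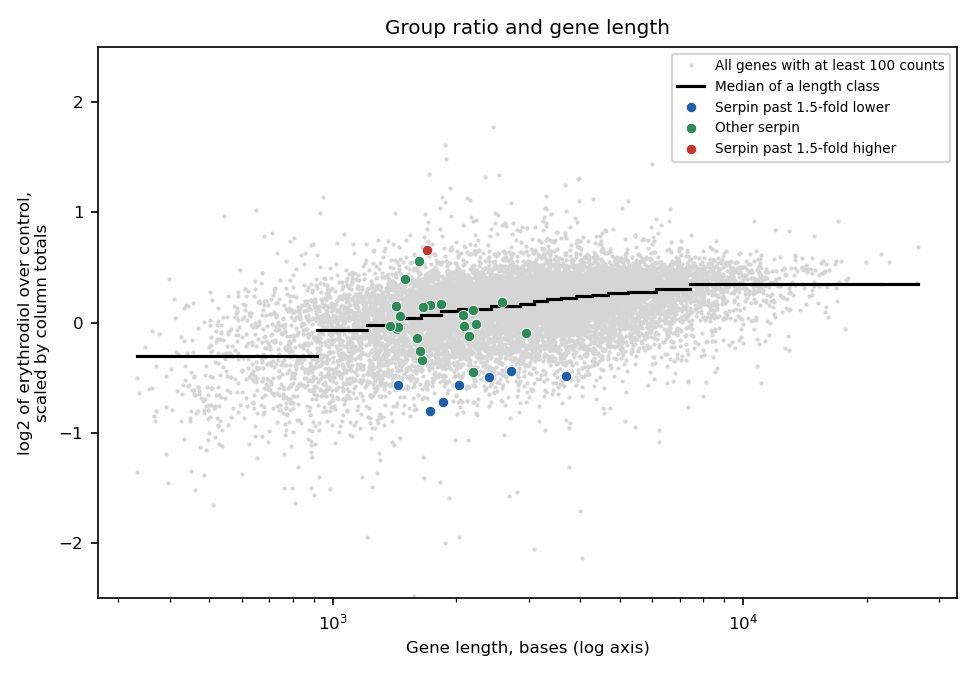
Log2 of erythrodiol over control after scaling by column totals (vertical axis) against gene length in bases (log axis) for genes with at least 100 counts, with the median of each of 20 length classes as black lines and serpins as large points; 7 genes lie beyond the axis limit of 2.5. The class medians climb from -0.30 to 0.35, and the 7 serpins past 1.5-fold lower lie below the line of their class.

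Of the 49 serpins, 30 had 100 or more counts over both groups. Together all 49 took 4.03% of counts in both groups, 4957064 of them in control and 5030590 with erythrodiol, a ratio of 1.00 (0.999 to 1.001). The length-relative log2 ratio of this sum was -0.03. Behind the near-equal totals, single members differed in both directions. Past 1.5-fold (0.585 on the log2 scale), 7 of the 30 (23.3%) were lower with erythrodiol against genes of like length, where 3.57% of all 13291 genes were. In the higher direction, 1 of the 30 (3.33%) was, where 1.06% of all genes were. The lower tail was wider among short genes. The lowest 5% lay below -0.63 at 1212 to 1434 bases, -0.49 at 1641 to 1833 bases and -0.46 in the longest class. The share past the limit among genes of serpin length was not computed. None of the 30 serpins was past 2-fold in either direction, and 0.474% of all genes were 2-fold lower and 0.188% 2-fold higher. The median of the 30 was -0.14 and 21 (70.0%) were below 0, against 49.95% of all genes. When only column totals were used, without taking any median of other genes away, 2 serpins were past 1.5-fold lower, Serpinb1a and Serpinb6b. Against the median of all genes, without regard to length, 8 were, the 7 and Serpina3f. By column totals alone, 63.3% of the 30 serpins and 28.8% of all 13291 genes lay below 0. The share of all genes past the limit was not computed in these settings.

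**Figure D2:**
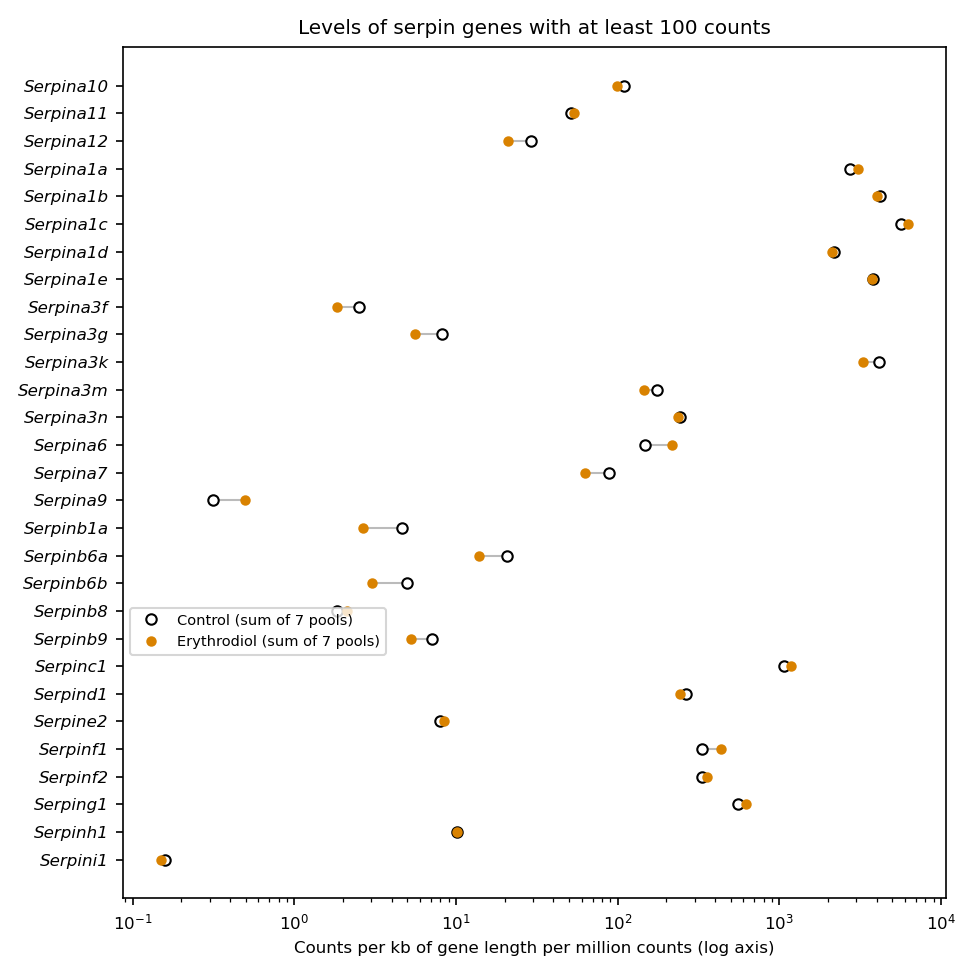
Counts per kb of gene length per 1000000 counts (log axis) of 29 of the 30 serpins with at least 100 counts, in clade order, with control as open and erythrodiol as filled points, each the sum over 7 pools. Levels run from 0.159 for Serpini1 to 5668 for Serpina1c in control, and the widest gaps between open and filled points belong to Serpinb1a, Serpinb6b and Serpina9.

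The Serpina1 genes are the mouse copies of the gene for alpha-1-antitrypsin, in humans the main inhibitor of neutrophil elastase in blood. Which proteases each mouse copy inhibits was not examined here. As a group they were the most abundant serpins of these livers. In counts per kb per 1000000 counts, Serpina1c had the highest level of all serpins in both groups, 5668 in control and 6279 with erythrodiol. It was followed in control by Serpina1b (4167), Serpina3k (4163), Serpina1e (3805), Serpina1a (2747) and Serpina1d (2164). With erythrodiol the order was Serpina1b (4014), Serpina1e (3728), Serpina3k (3296), Serpina1a (3076) and Serpina1d (2111). Thus Serpina3k went from the third place to the fourth, while Serpina1a stayed below it. Without replicates, no order of neighbours can be set against a spread.

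Serpina1c, with most counts of the group, had 991949 in control and 1114786 with erythrodiol, 1.11 times control (1.105 to 1.111). Serpina1a had 582045 and 661305 counts and was 1.12 times control (1.116 to 1.124). These are the copies that share most of their windows with each other, and both lay above genes of like length, by 0.16 and 0.09 on the log2 scale, although Serpina1c lay at -0.01 against the median of all genes. The remaining copies lay slightly below. Serpina1b had 734351 and 717631 counts (length-relative -0.04), Serpina1d had 383773 and 379881 (-0.08), and Serpina1e had 642427 and 638677 (-0.01). Serpina1f, the sixth copy, had 1 count in control and 0 with erythrodiol, so no ratio is given. No Serpina1 copy was past 1.5-fold.

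Summed over the copies, the Serpina1 group held 3334546 counts in control and 3512280 with erythrodiol, 2.71% and 2.82% of all counts. The length-relative log2 ratio of the sum was 0.05 (0.046 to 0.050), but it was -0.11 against the median of all genes and -0.0027 without Serpina1c, so its direction depends on the setting. Within the sum, the share of Serpina1c was 29.7% in control and 31.7% with erythrodiol, that of Serpina1a was 17.5% and 18.8%, and that of Serpina1b was 22.0% and 20.4%.

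The Serpina3 genes, relatives of human antichymotrypsin, were lower as a group. Their 10 genes held 945168 counts in control and 772449 with erythrodiol, 0.769% and 0.620% of all counts, and the sum was 0.805 of control (0.803 to 0.808). Against genes of like length its log2 ratio was -0.39, and it stayed negative under each alternative run. Most of this sum is 1 gene. Serpina3k, expressed mainly in liver, made up 89.4% of the group's counts in control and 87.9% with erythrodiol. It had 845128 and 678910 counts, 0.792 of control (0.789 to 0.794), and a length-relative log2 ratio of -0.41, inside the 1.5-fold limit. In its length class, the lowest 5% of genes lay below -0.49. Without Serpina3k the sum of the group was at -0.21.

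All 5 Serpina3 genes with at least 100 counts were below genes of like length, but by different amounts. Serpina3g, which encodes an inhibitor of cathepsins inside leukocytes, had 2044 counts in control and 1406 with erythrodiol and was 1.61-fold lower against genes of like length. Its neighbour Serpina3f had 678 and 505 counts and was 1.48-fold lower, just inside the limit. Serpina3m had 34951 and 29755 counts (-0.29 on the length-relative log2 scale). Serpina3n, the copy best known as an acute phase gene, had 62273 and 61786 counts and stood nearest to 0 (-0.15). The remaining 5 copies were near the limit of detection: Serpina3a had 1 and 2 counts, Serpina3b 13 and 16, Serpina3c 31 and 29, Serpina3i 48 and 39, and Serpina3j 1 in each group.

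**Figure D3:**
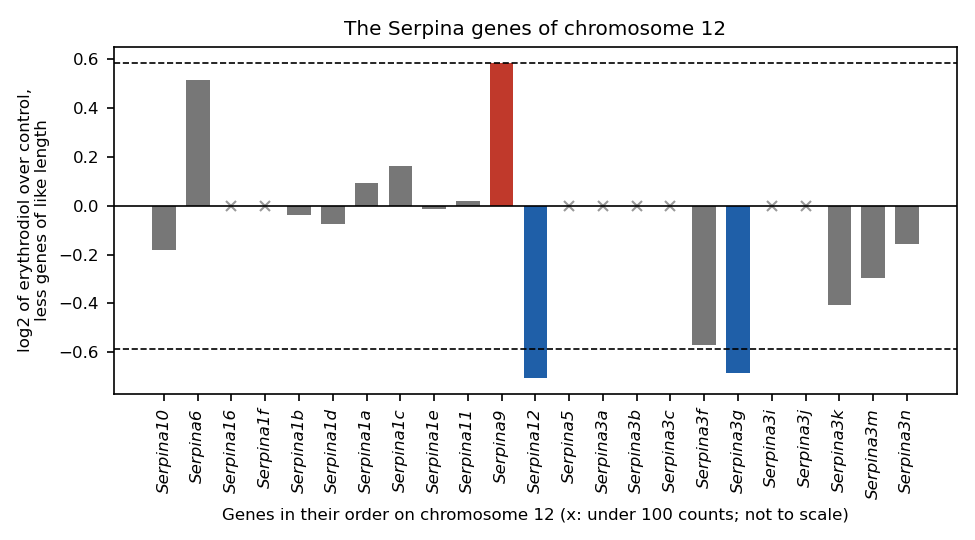
Length-relative log2 ratio (vertical axis) of the 23 Serpina genes of chromosome 12 in their order along the chromosome, not to scale; crosses are genes under 100 counts, dashed lines are 1.5-fold, blue and red bars are past them. The 5 Serpina3 genes with a bar lie between -0.68 and -0.15, the 5 Serpina1 genes between -0.08 and 0.16, and Serpina9 and Serpina12 stand side by side at 0.59 and -0.70. The bar of Serpina9 rests on 65 and 104 counts.

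The Serpina1 and Serpina3 copies are parts of one cluster of 23 Serpina genes at chr12:103616675-104414334 of GRCm38, in which 15 genes had at least 100 counts. Neighbours in the cluster differed in direction. Serpina6 lay at 0.52 beside Serpina10 at -0.18, and Serpina9 lay at 0.59 beside Serpina12 at -0.70. Serpina9 had only 65 and 104 counts, with a counting interval of 0.13 to 1.06 on this scale. The sum over the cluster had a length-relative log2 ratio of -0.04.

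Promoters of some Serpina1 and Serpina3 copies are shown beside their values. Length-relative log2 ratios lay between -0.08 and 0.16 for Serpina1a to Serpina1e, and at -0.57 for Serpina3f and -0.68 for Serpina3g. The part of the promoters in these values was not tested. The RefSeq promoter table for GRCm38.p6, from upstream of each start site to shortly after it, held 22 of the 30 serpins with at least 100 counts, and 3 motifs were searched on both strands. GTTAAT, the half-site bound by the liver factor HNF1, was found in 8.24% of 27025 genes and in 7 of the 22 serpins. These were all 5 Serpina1 copies, Serpina7 (length-relative log2 ratio -0.61) and Serpinb8 (0.03). The Serpina1 stretches printed below are much alike around the match, so matches in these copies are not independent. TTCNNNGAA, the palindrome of STAT factors, was found in 9.55% of all genes and in 4 of the 22. These were Serpina3f, Serpina3g, Serpina11 (0.02) and Serpinb6a (-0.61). TTNNGNAAT, a C/EBP-type motif, was found in 13.1% of all genes and in 6 of the 22, Serpina1a, Serpina3f, Serpina3g, Serpina3n, Serpina7 and Serpinc1. Over all 41 serpins with a promoter listed, at any count, the 3 motifs were found in 9, 8 and 14, in that order. No matches of different motifs overlapped in these promoters. In the following parts of 80 bases, capitals mark GTTAAT in Serpina1a (chr12:103863620-103863699), Serpina1c (chr12:103904951-103905030) and Serpina1e (chr12:103956934-103957013), all on the minus strand, and TTCNNNGAA in Serpina3f (chr12:104214387-104214466) and Serpina3g (chr12:104236067-104236146), both on the plus strand.
Serpina1a: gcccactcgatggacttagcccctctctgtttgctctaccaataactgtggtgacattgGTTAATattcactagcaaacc
Serpina1c: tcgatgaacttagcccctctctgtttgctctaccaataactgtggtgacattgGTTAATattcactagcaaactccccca
Serpina1e: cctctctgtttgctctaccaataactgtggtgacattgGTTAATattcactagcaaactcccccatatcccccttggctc
Serpina3f: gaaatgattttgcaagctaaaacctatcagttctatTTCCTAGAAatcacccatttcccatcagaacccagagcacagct
Serpina3g: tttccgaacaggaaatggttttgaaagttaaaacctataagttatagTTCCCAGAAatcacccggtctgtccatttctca
The match began 21 bases before the start site in Serpina1a, 27 in Serpina1c and 78 in Serpina1e, and 121 bases before the first start site listed for Serpina3f and 33 before that of Serpina3g. A match is a run of letters and no evidence that a factor was bound.

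Hormone carriers of clade A were far apart. Serpina6 encodes corticosteroid-binding globulin, the carrier of glucocorticoids in blood, and lies at chr12:103646630-103657218. It had 29370 counts in control and 43852 with erythrodiol, 1.47 times control (1.45 to 1.49), and a length-relative log2 ratio of 0.52, inside the limit. Serpina7 encodes thyroxine-binding globulin and lies at chrX:139079249-139085236. It had 26019 and 18802 counts, 0.712 of control (0.699 to 0.726), and was 1.53-fold lower against genes of like length. The 2 carriers thus lay on opposite sides of genes of like length.

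Further clade A genes of liver had clear counts or passed the limit. Serpina12 encodes vaspin, a serpin known as an insulin-sensitizing adipokine, and lies at chr12:104028769-104044443. It had 13272 and 9626 counts, 0.715 of control (0.696 to 0.734), and was 1.63-fold lower against genes of like length. At 3690 bases it was the longest serpin, and its class median was 0.22. Serpina9, known from germinal centre B cells, was the only serpin with at least 100 counts past the limit in the higher direction, with 65 and 104 counts. Its ratio of 1.58 had a counting interval of 1.15 to 2.18, and its length-relative fold of 1.501 was barely past the limit, and the gene came inside it with 10 or 50 length classes, with 1 count added or against the median of all genes. Serpina11 had 9185 and 9713 counts and lay at 0.02. Serpina16 had 3 and 2 counts.

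Serpins that inhibit clotting proteases lay close to genes of like length. Serpinc1, antithrombin, had 216996 counts in control and 243569 with erythrodiol (0.07 on the length-relative log2 scale). Serpind1, heparin cofactor II, had 70140 and 65259 counts (-0.25). Serpina10, the protein Z-dependent inhibitor of factor Xa, had 21546 and 19861 counts (-0.18). Of these 3 genes 0 were past 1.5-fold, and the fourth of the list, the protein C inhibitor gene Serpina5, had 6 counts in each group.

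Among inhibitors of fibrinolysis, Serpinf2, alpha-2-antiplasmin, had 89744 and 98504 counts and lay at -0.01. Serpine2, protease nexin 1, had 2032 and 2167 counts and lay at -0.05. Neither was past 1.5-fold, and Serpinb2, a mostly intracellular inhibitor of urokinase, had 13 and 8 counts. Serping1, C1 inhibitor, which controls complement and the contact system, had 124696 and 142484 counts and lay at 0.07.

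Members without an inhibitory role lay on both sides of 0. Serpinf1 encodes PEDF, a secreted factor that restrains blood vessel growth. It had 61458 and 81832 counts, 1.31 times control (1.30 to 1.33), and a length-relative log2 ratio of 0.35. Serpinh1 encodes HSP47, the collagen chaperone of matrix-producing cells, and had 2796 and 2818 counts (-0.13). Apart from these, the neuronal serpin Serpini1, an inhibitor of tissue plasminogen activator, had 58 and 55 counts (-0.27, with a counting interval of -0.83 to 0.29). Serpine3 had 12 and 16 counts, and Serpini2 had 1 count in control and 0 with erythrodiol.

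**Figure D4:**
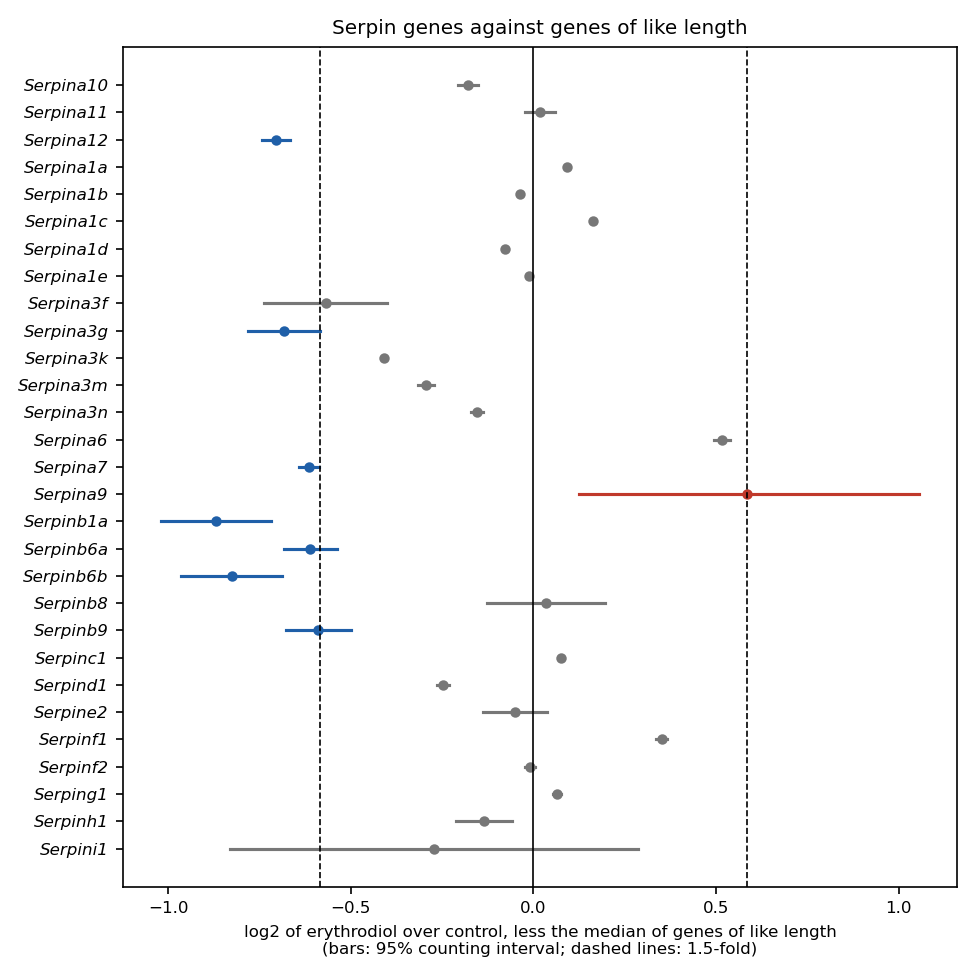
Length-relative log2 ratio (horizontal axis) of 29 of the 30 serpins with at least 100 counts in clade order, with 95% counting intervals as bars and dashed lines at 1.5-fold; blue points are past 1.5-fold lower and the red point is past 1.5-fold higher. In clade B, 4 of 5 genes lie between -0.87 and -0.59 and Serpinb8 lies at 0.03.

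Clade B held 4 of the 7 genes past 1.5-fold lower. They were 80% of its 5 genes with at least 100 counts, against 3.57% of all 13291 genes. Serpinb1a, an inhibitor of neutrophil elastase, cathepsin G and proteinase 3, lies at chr13:32842092-32853206. It had 985 counts in control and 575 with erythrodiol, 0.575 of control (0.518 to 0.638), and its length-relative fold, 1.83-fold lower, was the largest among the 30 serpins. Serpinb6b (chr13:32956811-32979067) had 1135 and 699 counts and was 1.77-fold lower. Serpinb6a (chr13:33917918-34002794), which inhibits cathepsin G and is expressed in many tissues, had 3677 and 2514 counts and was 1.53-fold lower. Serpinb9 (chr13:32997061-33017955), the inhibitor of granzyme B, had 2391 and 1796 counts and was 1.504-fold lower, barely past the limit. Serpinb6a came inside the limit with column totals alone, 10 or 50 length classes, genes of like count or no minimum of counts, and Serpinb9 with column totals alone, 50 length classes, a minimum of 10 counts or none.

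These 4 genes were the members with at least 100 counts among the 8 Serpinb genes at chr13:32842092-34002794. The fifth clade B gene with at least 100 counts, Serpinb8, a furin inhibitor, lies in a second group of 6 Serpinb genes at chr1:106861175-107608978. It had 588 and 679 counts, 1.14 times control (1.02 to 1.27), and lay at 0.03. As a clade, the 14 genes held 8916 counts in control and 6338 with erythrodiol, and the length-relative log2 ratio of this sum was -0.61 (-0.65 to -0.56). The sum over the chromosome 13 genes lay at -0.66 and that over the chromosome 1 genes at -0.06. The 9 clade B genes under 100 counts had 140 counts in control and 75 with erythrodiol in all. Serpinb10 had 50 and 19 of these, and Serpinb9b had 37 and 18.

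The sums of clades C, D and F to I were close to genes of like length, at 0.07 for clade C, -0.25 for clade D, 0.14 for clade F, 0.07 for clade G, -0.13 for clade H and -0.29 for clade I. Clade A as a whole had 4379180 and 4386695 counts and lay at -0.04. All 19 serpins under 100 counts together had 257 counts in control and 186 with erythrodiol.

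**Figure D5:**
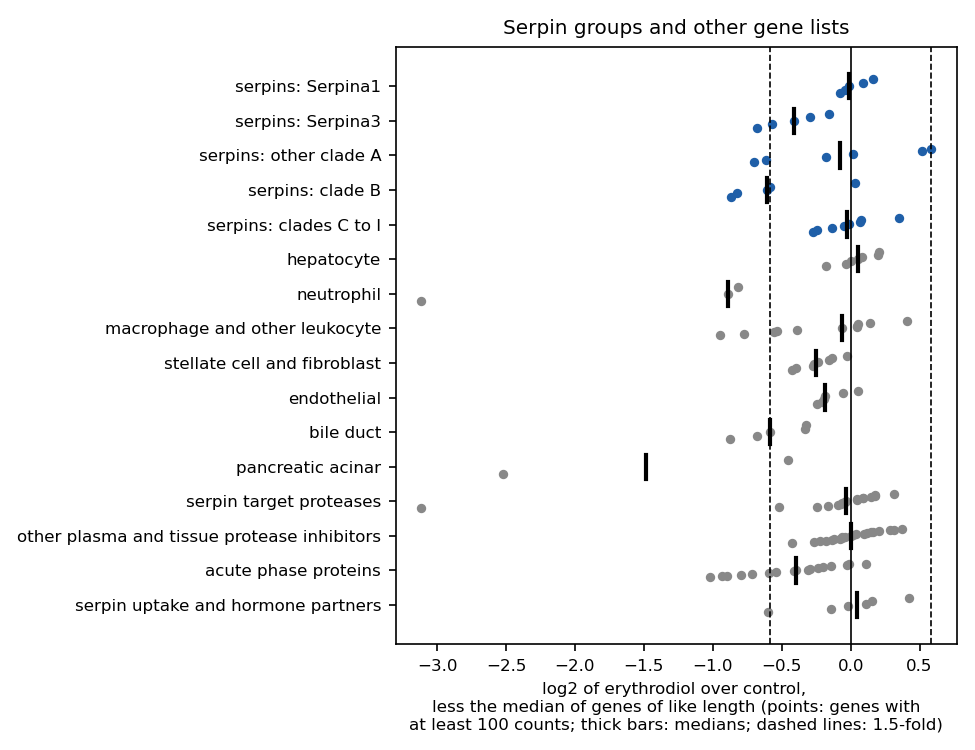
Length-relative log2 ratio (horizontal axis) of single genes with at least 100 counts in the serpin groups (blue) and in marker and pathway lists (grey), with medians as thick bars and dashed lines at 1.5-fold. Serpin clade B (median -0.61) and the Serpina3 genes (-0.41) lie left of 0, as do the neutrophil markers (-0.89) and the acute phase proteins (-0.40).

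Genes of some other lists were lower beside the clade B and Serpina3 genes. Over all 13291 genes with at least 100 counts, 3.57% were past 1.5-fold lower and 1.06% higher. In whole liver, fewer cells of a type and less RNA per cell cannot be told apart. Of the 9 neutrophil markers, 3 had at least 100 counts and all 3 were past 1.5-fold lower: S100a8 had 411 and 183 counts, S100a9 had 702 and 329, and Prtn3, proteinase 3, had 367 and 41. The list as a whole had 1620 counts in control and 610 with erythrodiol, no marker was at 0 in a group, and the defining granule genes Elane (24 and 14 counts), Mpo (13 and 3) and Ctsg (3 and 1) were near the limit of detection. Of 11 macrophage and other leukocyte markers, 2 were past the limit, the Kupffer cell genes Adgre1 (5786 and 3487 counts) and Clec4f (19293 and 12507), both lower. The list summed to 80336 and 58087 counts, with Lyz2 as the largest single part (34731 and 22897), and its median length-relative log2 ratio was -0.06. Of the 11, 6 lay below and 5 above genes of like length. Among those below but inside the limit were Lyz2 (-0.55), Ptprc (3339 and 2813 counts, -0.54) and Csf1r (10771 and 9724, -0.39). The macrophage gene Cd68 had 5773 and 6006 counts (0.05). The neutrophil markers and the Kupffer cell genes were thus lower beside the clade B serpins. Other leukocyte markers lay on both sides of genes of like length, and the part of all these genes in the clade B values was not tested.

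Acute phase proteins, which hepatocytes release during inflammation, were mostly lower. Of 17 genes, 6 were past 1.5-fold lower and 0 higher, where 3.57% and 1.06% of all 13291 genes were. Of the 17, 16 lay below genes of like length, against 49.95% of all genes, and the median was -0.40. The 6 were Saa1 (52221 and 22566 counts), Saa2 (25386 and 12039), Saa3 (8294 and 4529), Orm3 (853 and 460), Hpx (946243 and 601396) and Apcs (22167 and 10566), while C3 had 724595 and 936748 counts and lay at 0.11. The Serpina3 sum lay at -0.39 beside them, and Serpina3k made up 89.4% of its counts in control. Serpina3n, the copy best known as an acute phase gene, had 62273 and 61786 counts and lay at -0.15. The part of the acute phase genes in the Serpina3 values was not tested.

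Markers of other cells were given the same comparison, beside 3.57% of all 13291 genes past 1.5-fold lower and 1.06% higher. Hepatocyte markers had a median of 0.06, with 0 of 7 past the limit, and Trf, next to Alb in counts, had 1505734 and 1732206. Stellate cell and fibroblast markers had a median of -0.25 and endothelial markers one of -0.19, with 0 of 8 and 0 of 6 past the limit, and their genes of most counts were Dcn (32935 and 29753), Col3a1 (12187 and 11380), Stab2 (7173 and 8173) and Clec4g (5146 and 4367). Bile duct markers had a median of -0.58, with 2 of 5 lower past the limit, Krt19 (280 and 153 counts) and Epcam (353 and 244), beside Spp1 (12503 and 8363) and Sox9 (999 and 953). Of the 7 pancreatic acinar genes, 2 had at least 100 counts, Cela1 (1574 and 1113) and Amy2a5 (124 and 23), and the latter was lower past the limit. Of the 5 under 100 counts, Cpa1 (2 and 15), Ctrb1 (8 and 42) and Cel (8 and 14) had more counts with erythrodiol, and Prss2 (15 and 8) and Pnlip (11 and 10) had fewer. Of the 5 muscle genes, 4 were in the table and summed to 34 and 3 counts, of which Ttn had 27 and 0 and Acta1 3 and 2.99.

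The partners of the serpins mostly stayed near genes of like length. Past 1.5-fold lower were 3.57% of all 13291 genes, and 1.06% were higher. Of 20 target proteases, 18 had at least 100 counts, and 1 of them, Prtn3, was past the limit, lower. Plg, plasminogen, had 279144 and 305761 counts and lay at -0.04, and F2, prothrombin, had 194316 and 208565 counts and lay at -0.04. Of 22 other protease inhibitors of plasma and tissue, 21 had at least 100 counts and 0 were past the limit, with a median of 0.00498. Among them Ahsg had 799053 and 961016 counts and the macroglobulin Pzp had 719676 and 904285. Of 7 genes for serpin uptake and hormone partners, Vldlr, the very low density lipoprotein receptor, which also takes up serpin-protease complexes, had 713 and 610 counts, 0.843 of control (0.756 to 0.941). It was barely past the limit, lower, at -0.60 against genes of like length, and inside it at -0.25 with column totals alone. Vtn, vitronectin, a plasma and matrix adhesion protein, had 245071 and 290998 counts, and Lrp1, the main hepatic receptor for these complexes, had 97141 and 124203. The angiotensin precursor Agt, a clade A serpin whose symbol falls outside the rule, had 66712 and 78532 counts and lay at 0.11.

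The deposited assembly of transcripts beyond the reference held coding transcripts at 9 of the 49 serpin genes (18.4%), against 28.5% of all 17552 genes. There were 21 such transcripts, of which 6 belonged to Serpina1a, 5 to Serpina3g, 4 to Serpina1d, and 1 each to Serpina1b, Serpina1c, Serpina1f, Serpina3n, Serpina9 and Serpina10. They were assembled without regard to group, so no comparison between diets could be made from them.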

How the data were processed

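Liver RNA of 14 pools was sequenced in paired-end mode. Per the labels and the study's methods, the authors mapped clean reads to GRCm38 with HISAT, assembled further transcripts with StringTie and Cufflinks, mapped with Bowtie2 to reference and further coding transcripts, and counted with RSEM (versions not given in the sources used here). The authors deposited expected counts per gene summed over the libraries of a group and not normalized, counts of clean reads per library, and the percent of clean reads mapped to genes. The deposited table also holds the authors' own ratio, p-value and q-value per gene, which were not used. Groups and replicate numbers came from the labels.

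Group sums were scaled by column totals with pandas 2.3.3 and numpy 2.4.6, and intervals with scipy 1.17.1. From each log2 ratio the median of its class of gene length was taken (20 classes of about equal number, using genes with 100 or more counts over both groups). For a sum of genes, the expected ratio was that of its genes at their class medians. A group at 0 was given 0.5 counts, and no fold was given where both groups had 3 counts or fewer. Genes past 1.5-fold are counted; no test was possible, and no p-value is given. Expected counts were rounded for the 95% intervals only. Named were the Serpina1 and Serpina3 copies, and serpins with at least 1000 counts, past 1.5-fold at 100 counts or more, or in the role lists. Of the other lists, the genes past 1.5-fold and the 2 with most counts were named. The remaining serpins named (Serpina16, Serpinb9b, Serpinb10, Serpine3, Serpini1 and Serpini2) were added after their values were seen. So were Elane, Mpo, Ctsg, Ptprc, Csf1r, Cd68, Cpa1, Ctrb1, Cel, Prss2, Pnlip, Agt and Apoe. The lists were hepatocyte, neutrophil, macrophage and other leukocyte, stellate cell and fibroblast, endothelial, bile duct, pancreatic acinar and muscle markers, target proteases, other inhibitors, acute phase proteins, uptake and hormone partners, and 5 lists of serpin roles. The members and lists were chosen with earlier results of these data known. Positions were matched by gene ID to RefSeq (49 of 49), and sequences came from GENCODE M21 transcripts and RefSeq promoters, with coding sequences aligned by MAFFT. The values of 1 serpin are not reported here. The script was tested on simulated counts.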

Additional observations from a re-analysis of the deposited data

Results flagged for a closer look

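Control replicate 3 stood apart from its group in 1 library measure: 64.33% of its clean reads mapped to genes, and the next lowest control library had 74.39%. The gap was 0.588 of the whole range of the 7 control libraries. About 1 in 20 groups of this size shows such a gap by chance. The check was made on clean reads and on the mapped share in both groups, so a gap somewhere among them is likelier than 1 in 20. The library enters the control sum of every serpin, and the serpin values without it could not be computed, since the deposited counts are sums.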

How the results depend on the processing

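No paired analysis was possible because gene values are sums over the libraries of a group, and for the same reason leaving out each library was not run. The 7 serpins past 1.5-fold lower became 2 with column totals alone, 11 with a minimum of 10 counts, 14 with no minimum and 0 at a limit of 2-fold, and stayed between 5 and 8 under the other alternatives. Except at the limit of 2-fold, the share of all genes past the limit was not computed for the alternatives. The 1 serpin past 1.5-fold higher, Serpina9, became 0 against the median of all genes, with 10 or 50 length classes, with 1 count added to each group or at a limit of 2-fold, and the count was 3 with no minimum. The log2 ratios of the Serpina1, Serpina3 and all-serpin sums were, in that order, 0.054, -0.3121 and 0.0003 with column totals alone; -0.108, -0.4741 and -0.1617 against the median of all genes; 0.0292, -0.3975 and -0.0447 with 10 length classes; 0.0356, -0.3912 and -0.0396 with 50; 0.029, -0.4066 and -0.0481 against genes of like length and like count; 0.0243, -0.3607 and -0.0407 with a minimum of 10 counts; and 0.0379, -0.3453 and -0.0247 with no minimum. Leaving out the copy of most counts gave -0.0027 for Serpina1 and -0.2122 for Serpina3. These moves exceed counting error, which is small at such depth. Adding 1 count, or leaving the 10 genes of most counts out of the totals, kept all 3 sums within it. Of 270 values of the 30 single serpins under alternatives, 95 left the counting interval and 7, in 5 genes (Serpina11, Serpina1c, Serpinc1, Serpine2 and Serpinf2), changed sign; no serpin past 1.5-fold did. Spread between pools is the limit that depth does not remove.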
